A study of Mus musculus with 2 samples.

Results

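The 5S ribosomal RNA genes of the mouse lie in a tandem array on chromosome 8. They were taken here as all genes of type rRNA on that chromosome in the RefSeq annotation of GRCm38.p6, which underlies the mm10 build. This rule found 48 genes, of 65 rRNA-type genes and 49997 genes of all types in the annotation. All 48 lie in 1 run, chromosome 8 from 123538784 to 123622046, and each was counted with 500 bp on both sides. The data are END-seq, which joins an adapter to broken DNA ends in cells embedded in agarose, so that a read starts where the DNA was broken. One library came from S-phase CD43-negative splenic B cells that had been activated in culture with IL-4 at 25 ng/mL and anti-CD40 at 1 µg/mL. The other came from quiescent G1-phase cells cultured without them. For both, the culture lasted 24 to 28 h, the mice were 4 to 8 weeks old, and the title starts with ATR+c, a term the labels do not explain. The labels give no strain or genotype beyond this, and break ends give no expression with which to check the cell type.

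The 5S RNA is the smallest RNA of the large ribosomal subunit. It is transcribed by RNA polymerase III from a promoter inside the gene, to which the zinc finger protein TFIIIA binds first, followed by TFIIIC and TFIIIB. This sets it apart from the other ribosomal RNAs, which RNA polymerase I makes from the 47S units in the nucleolus. Like those units, the 5S genes are repeated head to tail, so that a stretch of near-identical DNA is both transcribed and replicated many times in a row. In the annotation the 5S genes stand 1698 bp apart in the median, with 1665 to 1727 bp from start to start. At 2 places the step is about double, 3386 and 3390 bp, and a unit annotated as a pseudogene (n-R5s127 and Rn5s-ps1) fills each of these gaps. Of the 48 genes, 32 are curated records of 121 bp and 16 are predicted records of 119 bp. The nearest protein-coding genes are Gas8, which ends 2127 bp before the array, and Rhou, which starts 31883 bp after it. The annotation table used gives no strand, so left means lower and right means higher coordinates throughout, and nothing is said of upstream or downstream.

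The S-phase library held 21997695 reads, of which 20543572 lay on chromosomes 1 to 19, and the G1 library 28933109, of which 26889564 lay there. Counts were scaled to the totals on chromosomes 1 to 19 and are given in RPM, reads per 1000000 of these. Ratios are S phase over G1 phase. Each group has a single library, so nothing was tested, replicates are absent, and every difference is one between these libraries. Intervals in parentheses are exact 95% intervals for counting error alone. They are too narrow where several reads are copies of 1 molecule, since no molecular identifiers were used. A count of 0 allows a level of up to 0.146 RPM in the S-phase library and 0.112 RPM in the G1 library, which is that of 3 reads.

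Reads in the array did not stack on single positions as reads elsewhere did. The 48 genes with their flanks held 1.09 reads per covered position and strand in S phase, against 1.098 in G1 phase. A single read was all that 91.2% and 91.6% of their covered positions held. In the 100 kb on either side of the array, 1554 S-phase reads lay on 540 positions and 1533 G1 reads on 406, or 2.88 and 3.78 reads per position. Over chromosomes 1 to 19 the values were 2.90 in S phase and 3.99 in G1 phase. The array thus lacked the stacks seen in the surrounding DNA.

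The stacks appeared when the copies were laid on top of each other. Offset 0 is the leftmost base of a 121 bp gene, and genes of 119 bp were placed by their right end. This placing was chosen after the reads were seen. It gave 322 distinct S-phase and 245 distinct G1 offsets, against 389 and 311 when the left ends were matched. Superposed in this way, the array held 2.503 reads per covered offset in S phase and 2.83 in G1 phase. Reads that share an offset lay in different copies in most cases. In S phase 172 offsets held at least 2 reads, and their 656 reads took up 587 pairs of an offset and a copy. In G1 phase 148 such offsets held 597 reads in 535 pairs. The sources used here do not say how reads that match several places were assigned, so the count of a single 5S gene cannot be taken as breaks in that copy. Pooled counts over all 5S genes with their flanks do not depend on which of these copies a read was given to. They would change if a read was given to a pseudogene unit of the array or to another place. Counts pooled over only some of the copies depend on the placing too.

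**Figure D1:**
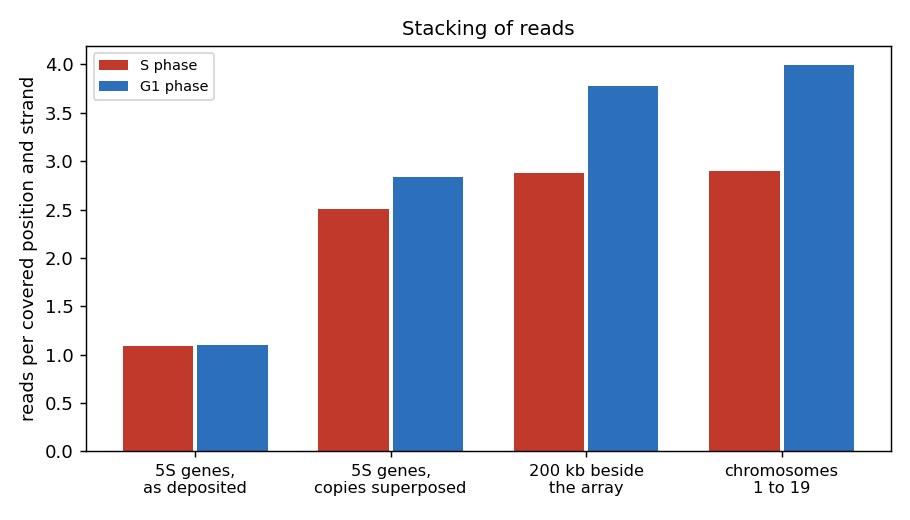
Reads per covered position and strand (vertical axis) for the 48 genes with flanks as deposited, the same reads with copies superposed, the 200 kb beside the array and chromosomes 1 to 19, with S phase as red and G1 phase as blue bars. Deposited values at the 5S genes are 1.09 and 1.098, and superposing the copies brings them to 2.503 and 2.83.

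Pooled over the 48 genes with their flanks, break ends were more frequent in S phase, and the minus strand carried most of the difference. The merged intervals cover 53776 bp. The S-phase library had 804 reads there and the G1 library 694, which is 39.1 and 25.8 RPM, and S over G1 was 1.52 (1.37 to 1.68). The minus strand held 450 S-phase and 325 G1 reads, with S over G1 at 1.81 (1.57 to 2.10). The plus strand held 354 and 369, with S over G1 at 1.26 (1.08 to 1.46). The intervals of the strands do not overlap. Each covered position of a strand was then counted once, with scaling to the covered positions of chromosomes 1 to 19. By this count S over G1 was 1.106 (0.993 to 1.23) for both strands and 1.31 (1.13 to 1.53) for the minus strand. For the plus strand it was 0.922 (0.790 to 1.08), and thus turned direction. The 5S counts changed little, to 735 and 632, while the scaling totals became 7087979 and 6738117 positions. The lower ratios thus came mainly from the scaling. This count merges stacks elsewhere but not reads that share an offset in different copies. It therefore cannot show what stacks spread over copies add. The plus-strand share was 44.0% (40.6 to 47.5) in the S-phase library, against 53.2% (49.4 to 56.9) in the G1 library, a difference of −9.14 points. Over chromosomes 1 to 19 the share was 49.4% and 49.3%, but single stretches of DNA vary far more than these totals. In windows as long as the whole array, the 5th and 95th percentiles of the difference were −9.74 and 9.69 points. The span of the whole array stood at −4.16 points, well within them. DNA that continues to the right of a broken end gives plus-strand reads, and DNA that continues to the left gives minus-strand reads.

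The array as a whole stood at the level of its surroundings in this ratio. The whole span from 500 bp before the first gene to 500 bp after the last had 1066 and 1049 reads, a ratio of 1.33 (1.22 to 1.45). The 100 kb on both sides together had a ratio of 1.33 (1.24 to 1.42), with 1.39 on the left and 1.26 on the right, while chromosome 8 as a whole stood at 1.006. Among 28488 windows of the same length on chromosomes 1 to 19, 3.66% had a ratio as high as the array or higher, and the median window stood at 1.006. By strand, the span had 1.44 on the minus strand, reached by 3.84% of windows. On the plus strand it had 1.22, reached by 16.8%. Counts were also scaled to the reads of the same strand or strands in the neighbouring DNA. The pooled 5S genes then had a ratio of 1.14 (1.03 to 1.27). The minus strand had 1.48 (1.28 to 1.72) and the plus strand 0.870 (0.750 to 1.01). These intervals take the neighbours' reads as fixed, leave out their counting error and are therefore too narrow. The neighbours themselves had S over G1 at 1.44 on the plus and 1.22 on the minus strand. Part of the contrast between strands after this scaling thus came from the neighbouring DNA. Before this scaling, the neighbours' minus-strand interval ended at 1.35 and that of the 5S genes began at 1.57. For the plus strand and for both strands together, the intervals of the 5S genes and the neighbours overlap. The intervals were thus apart on the minus strand only. Whether intervals overlap is no test of a difference, so an excess over both strands is not excluded. Reads of the neighbours stack on positions, so their intervals are too narrow as well.

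Within the repeat unit the genes and both of their 500 bp flanks had ratios above 1, with intervals that overlap, and the rest of the spacers had a ratio close to 1. The gene bodies alone held 182 and 137 reads, a ratio of 1.74 (1.39 to 2.19), with 1.75 on the plus and 1.73 on the minus strand. The left flanks held 357 and 319 reads, a ratio of 1.46 (1.26 to 1.71), and the right flanks 265 and 238 reads, 1.46 (1.22 to 1.74). The rest of the spacers, 28257 bp more than 500 bp from any 5S gene or pseudogene unit, held 228 and 306 reads, a ratio of 0.975 (0.818 to 1.16). Its interval does not overlap that of the genes with flanks. The 2 pseudogene units inside the array had 34 and 49 reads, 0.908 (0.569 to 1.44), and Gm23647, a pseudogene just right of the array, had 9 and 19 reads, 0.620 (0.247 to 1.44). The strands differed most in the left flanks. There the minus strand had 238 and 149 reads, with S over G1 at 2.09 (1.70 to 2.58), and the plus strand 119 and 170 reads, at 0.916 (0.719 to 1.16). The plus-strand share of the left flanks was 33.3% in S phase and 53.3% in G1 phase, while that of the right flanks was 58.5% and 58.4% and that of the gene bodies 44.0% and 43.8%. In the rest of the spacers it ran the other way, at 50.0% in S phase, against 40.5% in G1 phase, a difference of 9.48 points.

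**Figure D2:**
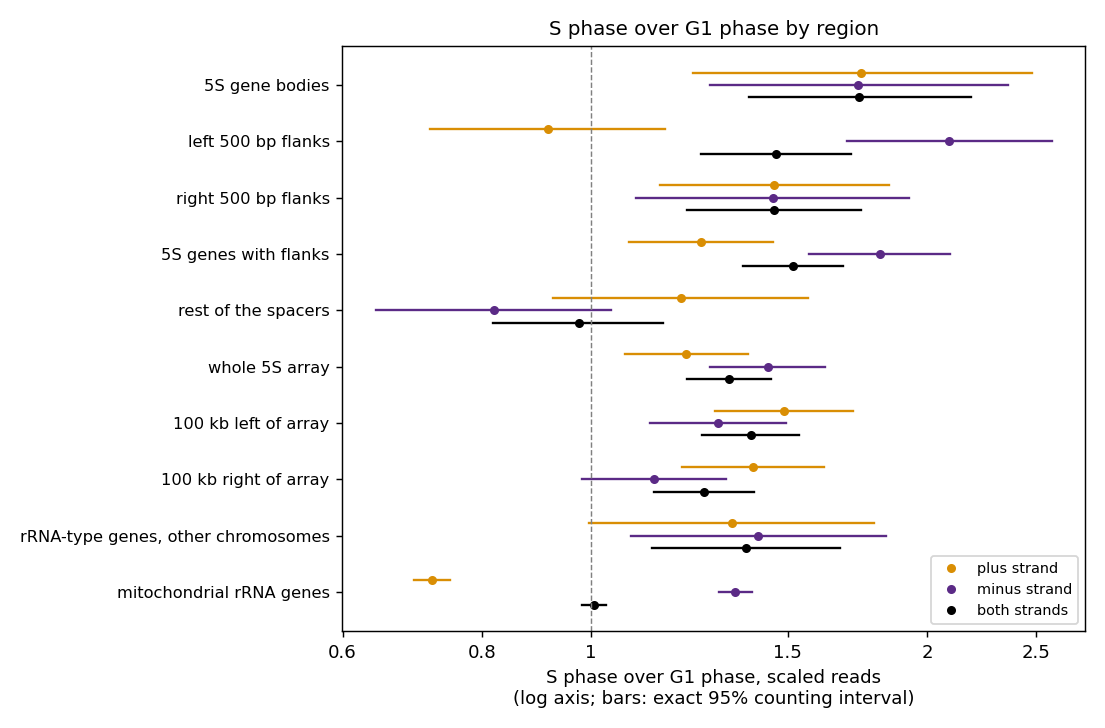
S phase over G1 phase of scaled reads (horizontal log axis) by region, with points for the plus strand (orange), minus strand (purple) and both strands (black) and bars for the exact 95% counting interval. The minus strand of the left flanks is highest at 2.09, and the rest of the spacers lies at 0.975 for both strands.

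In both libraries break ends were concentrated at the genes. Density is given in RPM per kb of annotated copy, since the number of 5S copies in these mice was not measured here. Gene bodies had 1.53 in S phase, against 0.882 in G1 phase, and the neighbouring DNA 0.378 and 0.285. Gene bodies were thus 4.06 times as dense as the neighbours in S phase and 3.09 times in G1 phase. The rest of the spacers had 0.393 and 0.403, or 1.04 and 1.41 times the neighbours.

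As the reads were assigned, this density was highest in the 121 bp genes. Their 32 bodies held 157 S-phase and 115 G1 reads, densities of 1.97 (exact Poisson interval 1.68 to 2.31) and 1.1045 (0.912 to 1.33). The 16 bodies of 119 bp held 25 and 22 reads, 0.639 (0.414 to 0.943) and 0.430 (0.269 to 0.651). The intervals of both classes are apart in each library. In S phase the interval of the 119 bp bodies also lay above that of the neighbouring DNA, 0.360 to 0.398. In G1 phase it overlapped that of the neighbouring DNA, 0.271 to 0.300. Flanks showed no such gap, with 0.645 and 0.436 beside the 121 bp genes and 0.602 and 0.423 beside the 119 bp genes. Every one of the 32 bodies of 121 bp held a read in S phase, with 1 to 9 reads each and a median of 5, and all but 2 did in G1 phase, with a highest count of 7 and a median of 3. Of the 16 bodies of 119 bp, 6 held none in S phase, against 4 in G1 phase, and the median was 1 in both. The letters in which the classes differ were not examined, and their part in where reads were placed was not tested. Both classes had similar ratios over gene and flanks, 1.55 (1.37 to 1.75) and 1.43 (1.18 to 1.74).

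**Figure D3:**
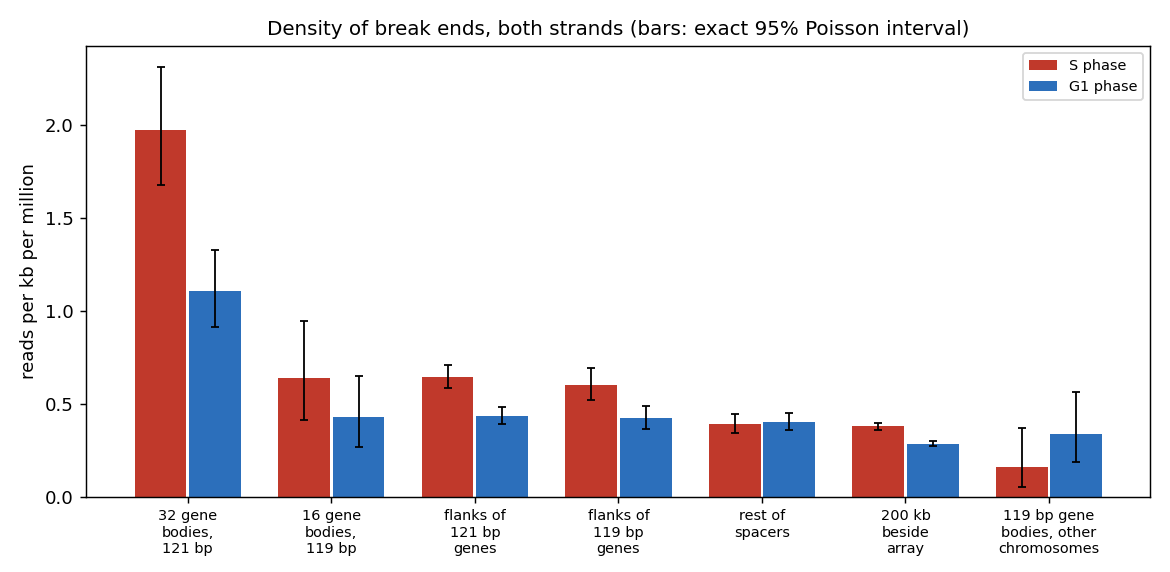
Break ends in RPM per kb on both strands (vertical axis) for S phase (red) and G1 phase (blue), with exact 95% Poisson intervals, in gene bodies and flanks of both length classes, the rest of the spacers, the 200 kb beside the array and isolated 119 bp genes. The 121 bp gene bodies stand highest at 1.97 and 1.1045, and the 119 bp bodies lie near their flanks.

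With the copies superposed, the gene and its left border formed a peak in both libraries. The bin of 50 bp just left of the gene was the highest, with 92 S-phase and 57 G1 reads on the minus strand, a ratio of 2.11 (1.502 to 2.99). Of these reads, 36 and 2 lay at a single offset, −27, so much of this ratio came from 1 base. Over the 100 bp left of the gene, covered minus-strand offsets counted once numbered 25 and 19. Their scaled ratio was 1.25, with an interval that spans 1 (0.662 to 2.40). Inside the gene the first 50 bp had 46 and 29 minus-strand reads, 2.08 (1.28 to 3.43), and 50 and 32 plus-strand reads, 2.05 (1.29 to 3.29). From 100 bp left of the gene to its right end, 19.7% of the window held 39.95% of the S-phase reads and 33.6% of the G1 reads. The minus strand of this stretch held 224 and 152 reads, a ratio of 1.93 (1.56 to 2.39). When every covered offset of both strands counted once there, the numbers were 85 and 46, or 1.76 times as many (1.21 to 2.57) after scaling. For the minus strand alone they were 53 and 32, a ratio of 1.57 with an interval that reaches 1 (0.997 to 2.52). The bounds of this stretch were set after the profile was seen.

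Other parts of the unit differed by strand. Plus-strand reads were nearly absent from 200 to 299 bp, with 3 S-phase and 1 G1 reads, and formed a broad mound over the outer part of the right flank, with 137 and 121 reads and S over G1 at 1.48 (1.15 to 1.91). The minus strand of the same stretch had 34 and 50 reads, 0.890 (0.558 to 1.40). Minus-strand reads 101 to 150 bp left of the gene numbered 31 in the S-phase and 6 in the G1 library, a ratio of 6.76 (2.78 to 19.8). In the same bin the plus strand had 9 and 5 reads, 2.36 (0.709 to 8.95). In another bin, 201 to 250 bp left of the gene, the plus strand had 4 S-phase and 40 G1 reads. Its ratio there was 0.131 (0.0340 to 0.362), while the minus strand had 13 and 10 reads, 1.70 (0.689 to 4.335). Both bins were named after the profile was seen. Along the left flank, plus-strand ratios of single bins lay on both sides of 1. A minus-strand peak at 700 to 749 bp, in the spacer, was present in both libraries with 34 and 53 reads, 0.840 (0.529 to 1.32). Beyond the flanks, copies of unequal unit length are less exactly superposed.

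**Figure D4:**
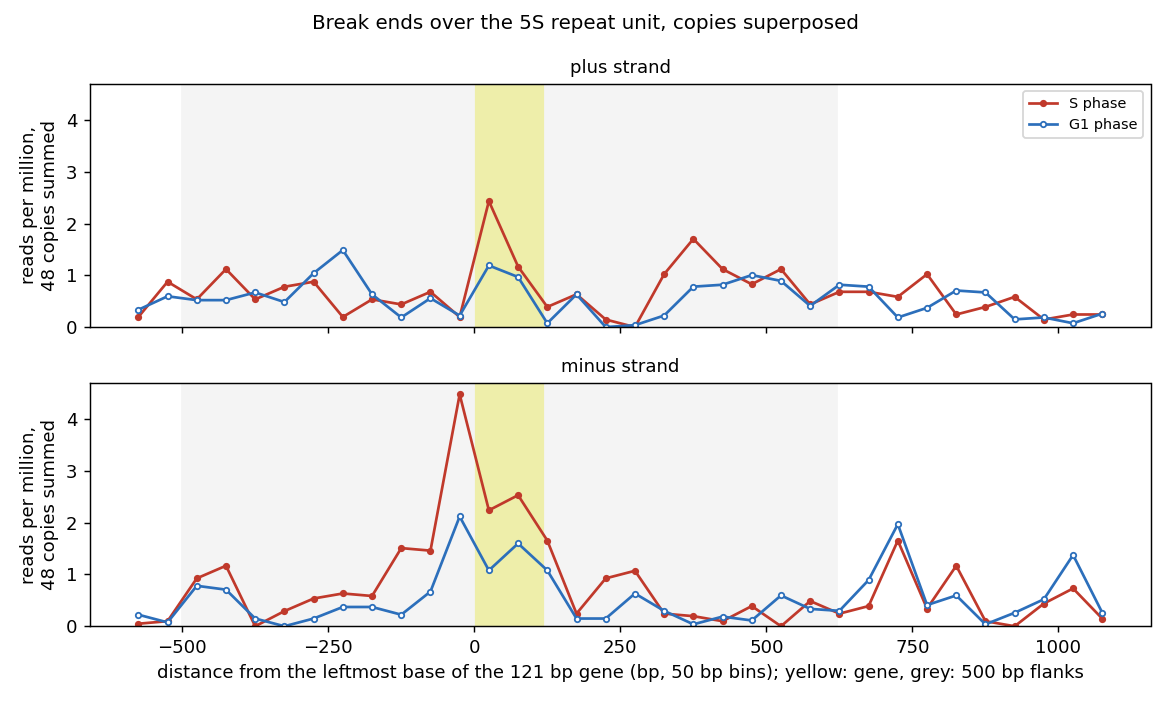
RPM summed over the 48 copies (vertical axis) by distance from the leftmost base of the 121 bp gene in 50 bp bins (horizontal axis), with the plus strand above, the minus strand below, S phase in red and G1 phase in blue. The minus-strand peak just left of the gene holds 92 S-phase and 57 G1 reads, and plus-strand reads nearly vanish between 200 and 299 bp.

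Single offsets showed how much of a peak came from few positions. The 3 highest offsets are named here after their values were seen. On the minus strand, offset −27 held 36 reads in 21 copies in S phase and 2 reads in 2 copies in the G1 library, a ratio of 23.6 (6.07 to 202). Offset −23, on the same strand, held 10 reads in 8 copies and 17 reads in 11 copies, 0.770 (0.315 to 1.78). The highest offset of each library was thus a different base of the same peak. On the plus strand, offset 13 held 19 reads in 15 copies and 6 reads in 5 copies, 4.14 (1.59 to 12.7). Offset −27 made up 8.00% of all minus-strand reads of the S-phase library in the window, and without it the minus-strand ratio was 1.68 (1.45 to 1.95). The libraries shared 81 covered offsets, which is 25.2% of those of the S-phase library and 33.1% of those of the G1 library. For scale, the S-phase library covered 14.4% and the G1 library 10.9% of the 2242 possible offsets of both strands. The shared part was not computed for other DNA, so whether it is large or small for these libraries is not known.

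Gene by gene, counts were low and overlapped widely between the libraries. Each 5S gene with its flanks held 6 to 30 S-phase reads (median 16.5) and 3 to 27 G1 reads (median 14.5). All 48 reached the 10 reads needed for a call, and 11 were called higher in S phase (a ratio of 2 or more) and 1 lower (0.5 or less). Of all genes counted the same way, 9.99% were called higher and 7.81% lower, but of genes of 100 to 200 bp, whose windows are as short as those of the 5S genes, 26.6% were called higher and 23.7% lower. The 5S share called higher, 22.9%, is near that of short genes, and the share called lower, 2.08%, is below it. In both directions together 12 of 48 were called, 25.0%, against 17.8% of all and 50.3% of short genes. At a fold of 1.5, 27 of 48 were called, against 34.1% of all and 68.3% of short genes. The median log2 ratio (pseudocount of 1) was 0.62 over the 48, against 0.12 over all genes and 0.08 over short genes. It was above 0 for 42 and below 0 for 6, where 60.1% of all and 52.8% of short genes were above 0. By RPM the minus strand was higher in S phase at 42 genes and the plus strand at 30. Since reads that share an offset lay mostly in different copies, the 48 genes are not separate measurements. Their counts above and below 0 and their shares called thus largely restate the pooled ratio. All genes and short genes, set beside them for scale, include the 48 themselves and were not checked for other repeated genes.

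**Figure D5:**
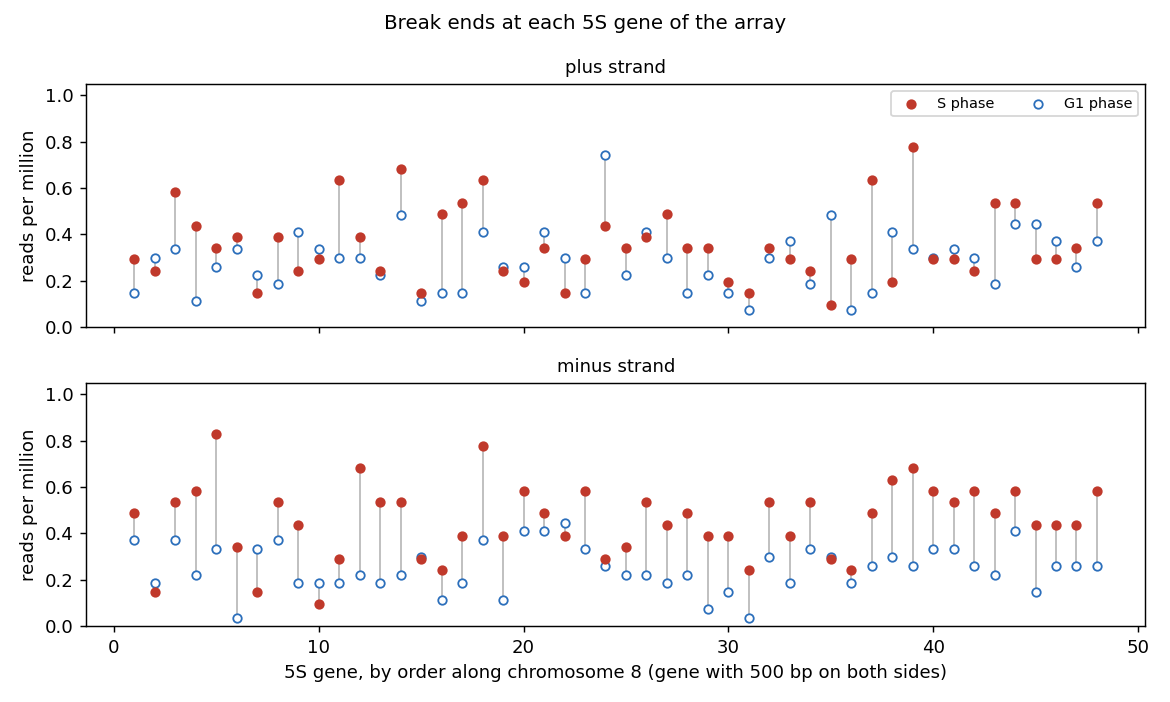
RPM (vertical axis) of each of the 48 5S genes with flanks, in order along chromosome 8 (horizontal axis), with the plus strand above and the minus strand below, S phase as filled red and G1 phase as open blue points joined by a line for each gene. S phase is higher at 42 genes on the minus strand and at 30 on the plus strand.

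The 5S genes with the most reads were n-R5s117 (123567635 to 123567755) with 29 in S phase and 21 in G1 phase, Gm22109 (123606611 to 123606731) with 30 and 16, Gm25212 with 23 and 23, and n-R5s113 with 25 and 19. Next came n-R5s102 with 23 and 19 and n-R5s123 with 15 and 27, which have the same sum. The highest ratios among genes with at least 20 reads were those of n-R5s103 (123543871 to 123543991), with 21 and 9 reads and 3.05 (1.34 to 7.57), n-R5s115, with 15 and 7 reads and 2.80, and Gm25018, with 19 and 9 reads and 2.76. The lowest was that of Rn5s (123598156 to 123598276), the gene that carries the plain 5S symbol, with 8 and 21 reads and 0.499 (0.191 to 1.17). It was followed by n-R5s106 with 6 and 15 reads at 0.524 and n-R5s121 with 11 and 20 reads at 0.720. Of the 48 intervals 8 lay above 1 and 0 below it. The outermost genes lay within the range of the others, with 16 and 14 reads at n-R5s100, the first, and 23 and 17 at n-R5s149, the last.

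As the reads were assigned, counts varied far less from gene to gene than in the DNA beside the array. They averaged 16.8 ± 5.31 S-phase reads and 14.5 ± 4.70 G1 reads (SD over 48 genes of 1 library), and the variance was 1.68 and 1.53 times the mean. In 178 windows of the same length beside the array the variance was 6.09 and 6.04 times the mean. Reads that share an offset lay mostly in different copies, and how they were assigned is not known. An even spread over copies is therefore no measure of how breaks vary between copies, and neither are the ratios along the array. As assigned, the ratio was similar along the array, with overlapping intervals. Genes 1 to 16 by position had a ratio of 1.58 (1.31 to 1.90), genes 17 to 32 of 1.499 (1.25 to 1.80) and genes 33 to 48 of 1.48 (1.25 to 1.76), and on the minus strand the values were 1.75, 1.84 and 1.84.

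Single rRNA-type genes of other chromosomes served as comparison. The annotation lists 17, of which 2 are mitochondrial. Rn28s1 is placed before the first covered position of chromosome 11 and was not counted. The other 14, which are 13 genes of 119 bp and the 4.5S RNA gene Rn4.5s, held 221 S-phase and 210 G1 reads with their flanks, a ratio of 1.38 (1.14 to 1.67), which overlaps that of the array. Strands were alike there, with 1.34 on the plus and 1.41 on the minus strand. Without flanks they held 23 and 37 reads, and the ratio turned to 0.814 (0.462 to 1.41). The density of all 14 bodies was 0.651 in S phase, against 0.7995 in G1 phase. Most of these body reads, 18 and 23, lay in Rn4.5s. Of the 13 genes of 119 bp, 10 had no read in the body in either library, and together these 13 bodies held 5 and 14 reads, densities of 0.157 and 0.337.

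Rn4.5s (chromosome 6, 47654921 to 47655094) held 90 and 88 of those reads, 1.34 (0.987 to 1.82). LOC115490001 on chromosome 4 had 26 and 24 reads, 1.42, and n-R5s33 on chromosome 16 had 30 and 18 reads, 2.18 (1.18 to 4.16), none of them in the gene itself. The lowest with at least 20 reads was n-R5s162 on chromosome 6, with 14 and 22 reads, 0.833 (0.394 to 1.70), and n-R5s58 on chromosome 12 had 7 and 10 reads. Of 10 genes with enough reads for a call, 2 were higher in S phase (against 9.99% of all and 26.6% of short genes) and 0 lower (against 7.81% and 23.7%). Mitochondrial rRNA genes, which are present in many copies per cell, had 11124 and 14449 reads, a ratio of 1.008 (0.983 to 1.03), with 0.722 on the plus and 1.35 on the minus strand.

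Genes for the proteins that make or carry 5S RNA were counted as DNA with 500 bp flanks. All 28 listed genes were found. Of these, 2 were called higher (7.14%, against 9.99% of all genes) and 0 lower (against 7.81%), and the median log2 ratio was 0.31, with 24 above 0 and 4 below, where 60.1% of all genes were above 0. Gtf3a, the gene for TFIIIA, had 113 and 145 reads, a ratio of 1.02 (0.790 to 1.31). The called genes were Polr3d, a subunit of RNA polymerase III, with 72 and 31 reads and 3.04 (1.97 to 4.79), and Ssb, whose La protein binds the ends of new polymerase III transcripts, with 149 and 85 reads and 2.29 (1.75 to 3.03). Gtf3c5, a TFIIIC subunit, followed at 1.76 (1.34 to 2.32). The lowest were Polr3a, the largest polymerase III subunit, with 263 and 443 reads and 0.777 (0.665 to 0.907), Rpl5 at 0.916 (0.707 to 1.18) and Bdp1, a part of TFIIIB, at 0.938. Rpl5 and Rpl11 encode the ribosomal proteins that bind 5S RNA before it enters the ribosome, and Rpl11 stood at 1.55 (1.14 to 2.11).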

How the data were processed

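END-seq was measured in 1 library of activated S-phase and 1 of quiescent G1-phase B cells. The authors deposited a track for each library and strand. Each value, per the file headers and contents, counts the read ends at 1 base in bedGraph form, and these counts are raw. Per the submitters' processing notes, the tools were Bowtie 1.1.2, SAMtools 1.11 and bedtools, and the build was mm10. Not given in the sources used here are their settings and the treatment of duplicates and of reads with several matches. Counts were summed over genes with 500 bp flanks, merged where they overlap, with pandas 2.3.3 and numpy 2.4.6 under Python 3.11.15, and scaled to reads on chromosomes 1 to 19. Intervals came from scipy 1.17.1 (conditional exact for ratios, Clopper-Pearson for shares, exact Poisson for densities) and figures from matplotlib 3.10.9. A gene was called when it had 10 or more reads in both libraries together and S over G1 was 2 or more (higher) or 0.5 or less (lower). The call rule and the interval were tested on simulated Poisson counts without stacks. The raised genes held more reads than the 5S genes and a larger change than the call needs. This does not show how the rule performs on genes with few or stacked reads. Genes came from RefSeq (GRCm38.p6). Named 5S genes are the 5 with the most reads, the 3 highest and 3 lowest ratios from at least 20 reads, and the first and last by position. Genes of other chromosomes were named by reads and ratios in the same way, and pathway genes by ratios alone, with Gtf3a, Rpl5 and Rpl11 added. The rule also names the nearest protein-coding genes, whose counts are not reported here. Members and lists were chosen with earlier results of these data known. Superposing the copies, and the zones and offsets named, were chosen after the data were seen. Alternatives covered scaling, flanks, stacks, single positions and thresholds.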

Additional observations from a re-analysis of the deposited data

How the results depend on the processing

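The pooled ratio of the 5S genes stayed above 1 under all 14 alternatives, from 1.106 to 1.74. The alternative that kept only genes within the run holds the same 48 genes and could not differ. It was 1.74 without flanks, 1.72 with 250 bp and 1.35 with 1000 bp flanks, 1.33 over the whole array, and 1.106 (0.993 to 1.23) with each covered position counted once. Of the alternatives added after the data were seen, superposing the copies and counting each offset once gave 1.25 and scaling to the neighbouring 200 kb gave 1.14. The minus-strand ratio ranged from 1.31 to 2.00 and was 1.46 with 1000 bp flanks, 1.31 by position, 1.33 by superposed offset and 1.48 against the neighbours. The plus-strand ratio is not settled in direction: it was 1.75 without flanks, but 0.922 by position and 0.870 against the neighbours. The difference in plus-strand share was 0.160 points without flanks, −3.93 with 1000 bp flanks and −2.98 by superposed offset. At a fold of 1.5, 27 of the 48 genes were called in place of 12 (34.1% of all and 68.3% of short genes). For single rRNA-type genes of other chromosomes the ratio was 0.814 without flanks, from 23 and 37 reads, and 1.01 with the mitochondrial genes. The lower ratios by position came mainly from the scaling totals, since the 5S counts themselves changed little. Counting by position could not merge reads that share an offset in different copies. For other changes in value beyond counting error, the cause was not tested. Scaling to the median gene lowers all log2 ratios by 0.12. No paired analysis was possible because each group has 1 library. Depth limits single genes, whose 3 to 30 reads allow wide intervals.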
